A study of Mus musculus with 7 samples.

Results

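The genes described here are 3 metallothioneins and 3 genes of the zinc response, 6 of 23284 gene symbols in the count tables: Mt1, Mt2, Mt3, Mtf1, Slc30a1 and Slc39a10. They were picked by symbol with earlier results of the same comparison known, so their differences between genotypes are given as a description, and no p is given for them. All 6 passed the filter on low counts and were among 14290 genes fitted. RNA came from the atrioventricular canal, the part of the embryonic heart tube where valves begin to form, of mouse embryos on an outbred NMRI background of 18 to 23 somites, at about embryonic day 9 (the sample titles read 9.5). The groups were Hand2 d/d embryos, which lack every coding region of the transcription factor gene Hand2 in all cells after germline deletion (4 libraries, replicates 1 to 4), and wild-type embryos (3 libraries, replicates 2 to 4). Each library was 1 pool of 4 hand-dissected canals. The labels give pools with the same somite and sex distribution in both genotypes, and no other treatment.

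Metallothioneins are small, cysteine-rich proteins that bind zinc and copper and buffer their free levels. MTF1 is a zinc-sensing transcription factor that binds metal response elements (MREs) in the promoters of Mt1, Mt2 and Slc30a1 when zinc is high. Mt1 and Mt2 are also known to be induced by glucocorticoids, oxidative stress and low oxygen, and in the mouse embryo they are abundant in yolk sac endoderm and liver. SLC30A1 (ZnT1) exports zinc across the plasma membrane, SLC39A10 (ZIP10) imports it, and MT3 is best known from the brain.

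The promoters of Mt1, Mt2 and Slc30a1 are shown because they are the members best known to answer to MTF1. Each sequence runs 5′ to 3′ from 250 bases before to 30 bases after the annotated start, from RefSeq on GRCm38.p6, and capitals mark matches to the MRE core, TGCACNC or TGCGCNC on either strand. The windows are chr8:94178839-94179118 for Mt1, chr8:94172368-94172647 for Mt2 and chr1:191906531-191906810 for Slc30a1, all on the plus strand.
Mt1: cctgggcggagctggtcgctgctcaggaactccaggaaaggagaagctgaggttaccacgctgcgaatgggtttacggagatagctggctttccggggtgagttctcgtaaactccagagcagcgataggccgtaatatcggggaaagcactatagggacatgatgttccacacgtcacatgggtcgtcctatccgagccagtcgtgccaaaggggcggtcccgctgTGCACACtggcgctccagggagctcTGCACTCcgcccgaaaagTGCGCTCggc
Mt2: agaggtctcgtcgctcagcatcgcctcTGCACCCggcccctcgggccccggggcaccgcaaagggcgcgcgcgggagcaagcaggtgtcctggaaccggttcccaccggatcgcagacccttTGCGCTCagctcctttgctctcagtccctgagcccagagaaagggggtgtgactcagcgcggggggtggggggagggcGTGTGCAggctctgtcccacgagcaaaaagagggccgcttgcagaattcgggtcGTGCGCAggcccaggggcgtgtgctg
Slc30a1: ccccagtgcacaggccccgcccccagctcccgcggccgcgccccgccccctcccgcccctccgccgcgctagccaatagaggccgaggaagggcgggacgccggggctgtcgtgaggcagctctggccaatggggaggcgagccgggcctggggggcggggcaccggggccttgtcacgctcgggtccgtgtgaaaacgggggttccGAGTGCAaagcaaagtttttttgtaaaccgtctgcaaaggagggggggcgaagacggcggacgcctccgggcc

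Over the whole 300-base windows, which add 20 bases to those printed, Mt2 held 4 MRE matches, Mt1 3, Slc30a1 2 and Mt3 1. The Mt1 matches began at -23, 3 and 21 and those of Mt2 at -223, -128, -50 and 5, counted from the annotated start. For each of these genes 1 start was searched, although the GENCODE M21 annotation lists 3 transcripts of Mt1 and 2 of Mt2. Which start the canals use was not tested, and matches near any other start are not counted. The second Slc30a1 match, at 31, and the Mt3 match, at 28, end beyond the printed length. The Mtf1 window and both Slc39a10 windows held none. Of 32851 promoter windows of all genes, 25.7% held at least 1 match, 7.11% at least 2, 1.97% at least 3 and 0.517% at least 4. The hypoxia response core ACGTG, searched on both strands, occurred in the Mt1 window alone among the members and in 19.6% of all windows. The antioxidant response core TGACNNNGC occurred in the Mt2 and Slc30a1 windows and in 12.4% of all windows. None of these matches overlapped an MRE match, and a match of letters is a description and not a bound site.

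The 7 libraries held 27905601 to 44860753 reads in genes, and each differed from the others of its genotype by more than sampling noise. Hand2 was counted 7 to 26 times per null library, against 1194 to 2123 times per wild-type library, so all libraries matched their genotype labels. Heart muscle markers (Tnnt2, Myh6, Myl7 and Actn2) had summed levels of 14371 to 18536 CPM (counts scaled to the library total of reads in genes) in null canals, against 15767 to 16225 CPM in wild-type canals. Myl7 made up most of these sums. The log2 fold change, null over wild type, was 0.71 for Actn2 (SE 0.201, edgeR adjusted p = 0.0581) and from -0.13 to 0.08 for the others. All 4 canal myocardium markers and all 5 endocardial markers had reads in every library. Haemoglobin took 0.554% to 1.43% of gene reads in null libraries and 0.923% to 2.18% in wild type, with the most in wild-type replicate 4. In such tissue, fewer cells of a type and less RNA per cell cannot be told apart.

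Mt1 was the most abundant member and the one with the largest fold difference. It had 197, 171, 217 and 85.7 CPM in null replicates 1 to 4, against 35.4, 32.2 and 67.7 CPM in wild-type replicates 2 to 4. Every null library was above every wild-type library, while null replicate 4 and wild-type replicate 4 lay closest together. The means were 168 ± 57.9 CPM (SD, n = 4) in the null and 45.1 ± 19.7 CPM (SD, n = 3) in wild type. The fitted difference was a log2 fold change of 1.89 (SE 0.333), or 3.70-fold.

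Mt2, the second ubiquitous metallothionein, had the same library order within each genotype at a lower level. It stood at 31.9, 29.0, 34.5 and 11.4 CPM in null replicates 1 to 4, against 5.73, 5.12 and 15.5 CPM in wild-type replicates 2 to 4. The groups overlapped, since null replicate 4 was below wild-type replicate 4. Mean levels were 26.7 ± 10.4 CPM (SD, n = 4) in the null and 8.78 ± 5.81 CPM (SD, n = 3) in wild type, with a log2 fold change of 1.60 (SE 0.429), or 3.04-fold.

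Mt1 and Mt2 went up and down together from library to library. Mt1 supplied 86.1%, 85.5%, 86.3% and 88.2% of the Mt1 and Mt2 reads in null replicates 1 to 4, against 86.1%, 86.3% and 81.4% in wild-type replicates 2 to 4. In wild-type replicate 4 the share was the lowest, with an exact 95% binomial interval of 79.8% to 83.0%, and in null replicate 4 the highest, with 87.2% to 89.2%. The other 5 libraries lay within 84.1% to 88.3% by their own intervals. These intervals cover counting error only, because amplified reads without molecular identifiers are not independent molecules. No 50-base stretch of the first-listed Mt1 transcript occurs in a transcript of another gene of the GENCODE M21 annotation. For Mt2, 45.5% of such stretches also occur in the antisense gene Gm45774, which has no row in the counts, and the libraries do not record strand, so its reads cannot be told from those of Mt2.

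Mt3 was lower in the null. It had 6.51, 5.91, 5.65 and 4.39 CPM in null replicates 1 to 4, against 9.09, 10.2 and 9.60 CPM in wild-type replicates 2 to 4. All null libraries were below all wild-type libraries, and the spread within each genotype was small. The means were 5.61 ± 0.891 CPM (SD, n = 4) and 9.63 ± 0.555 CPM (SD, n = 3), with a log2 fold change of -0.80 (SE 0.198). Mt3 made up 2.20% to 4.33% of the reads of the 3 metallothioneins in null canals and 10.3% to 21.5% in wild-type canals, a share that depends on the levels of Mt1 and Mt2 as well. The fourth gene of the cluster, Mt4, known from stratified epithelia, had 0 to 2 reads per null library and 0 to 3 per wild-type library. A count of 3 reads was taken as the floor of detection, so Mt4 was not detectable at this depth.

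**Figure D1:**
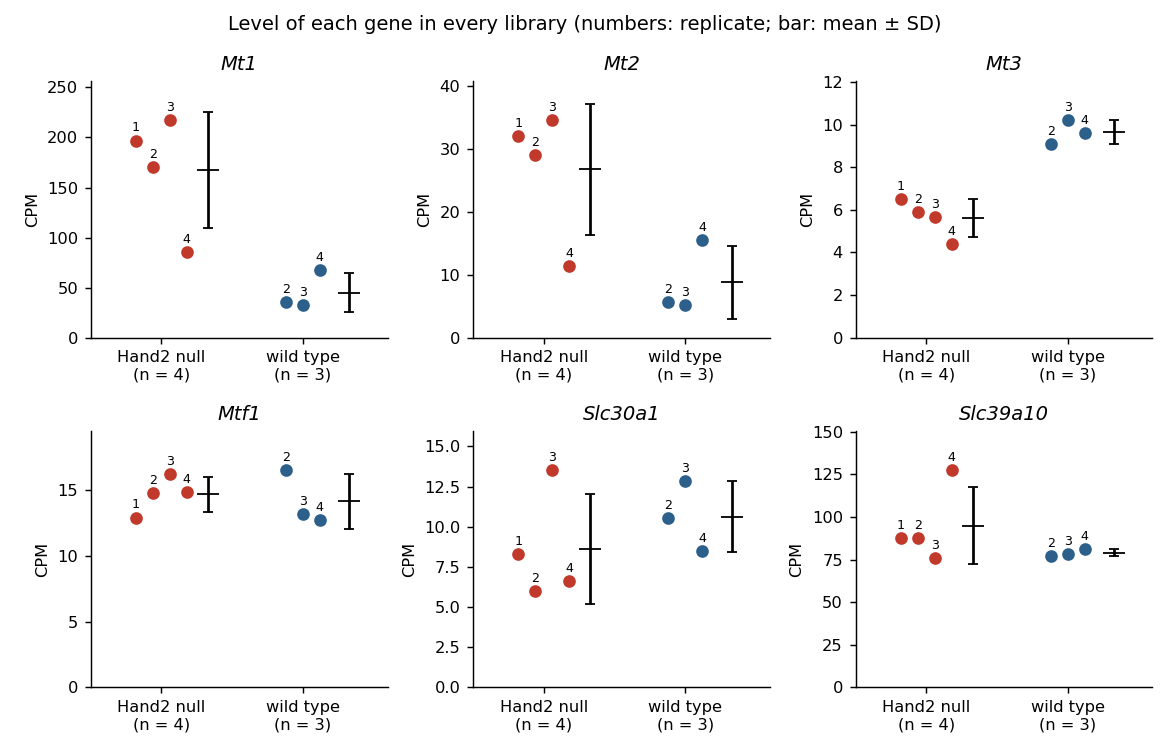
Level of each member in CPM (linear axes from 0) in 4 Hand2 null and 3 wild-type libraries, with replicate numbers beside the points and the mean ± SD as a bar. Mt1 and Mt3 show no overlap between genotypes, in opposite directions, and null replicate 4 is the lowest null library for Mt1, Mt2 and Mt3.

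The regulator and the transporters among the members differed less. Mtf1 itself had 12.9, 14.8, 16.2 and 14.8 CPM in null replicates 1 to 4, against 16.6, 13.2 and 12.7 CPM in wild-type replicates 2 to 4. The groups lay on top of each other, with a log2 fold change of 0.03 (SE 0.167) whose sign changed in 4 of 15 alternative analyses. Mtf1 shares sequence with the antisense gene 1110065P20Rik, which had 55 to 148 reads of its own.

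Slc30a1, the zinc exporter whose promoter holds MREs, had 8.28, 6.03, 13.5 and 6.60 CPM in null replicates 1 to 4. Wild-type replicates 2 to 4 had 10.5, 12.9 and 8.46 CPM. The groups overlapped widely, and null replicate 3 was the highest library of all 7. The log2 fold change was -0.32 (SE 0.290). Leaving out null replicate 3 gave -0.64, and leaving out wild-type replicate 3 gave -0.14. Slc30a1 overlaps the antisense gene 1700034H15Rik, which had 24 to 55 reads.

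Slc39a10, a zinc importer known in mouse to be repressed by MTF1 when zinc is high, had 87.8, 87.8, 75.8 and 127.6 CPM in null replicates 1 to 4. Wild-type replicates 2 to 4 had 77.2, 78.3 and 81.2 CPM. Null replicate 4 was far above the rest and null replicate 3 below all wild-type libraries. The log2 fold change was 0.24 (SE 0.169) with all libraries and 0.06 without null replicate 4. Null replicate 4 was thus the null library with the least Mt1, Mt2 and Mt3 and the most Slc39a10, and its Slc39a10 reads outnumbered those of Slc30a1 19.3-fold. That ratio was 5.60 to 14.6 in the other null libraries and 6.09 to 9.61 in wild type.

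Of the 6 members, 2 were called higher and 1 lower at an adjusted p under 0.05 by edgeR's quasi-likelihood test, where 6.24% of all 14290 genes were called, 4.11% higher and 2.13% lower. For 2 members the genotypes did not overlap in CPM, Mt1 higher and Mt3 lower in the null. Among all genes tested, 11.6% had no overlap with the null higher and 10.3% with the null lower. Since the members were chosen from this contrast, nothing is read from these counts. With wild-type replicate 4 removed, Mt1 and Mt2 had log2 fold changes of 2.28 and 2.27. Removing null replicate 4 gave 2.10 and 1.85, and removing null replicate 3, the library richest in both, gave 1.72 and 1.44.

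**Figure D2:**
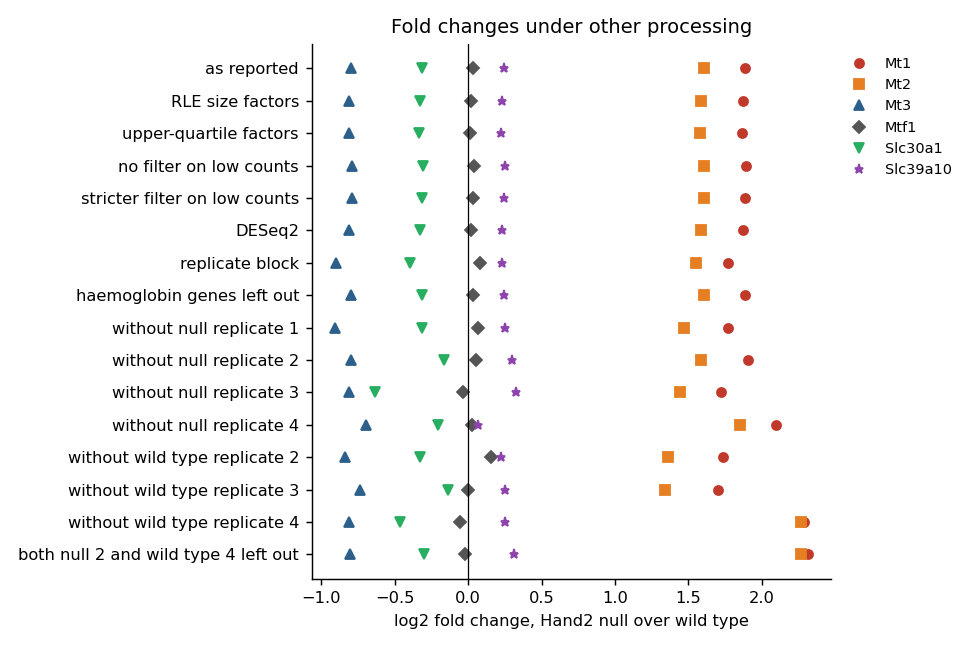
Log2 fold change (Hand2 null over wild type) of each member, as reported in the top row and under 15 alternatives below it. Mt1 stays between 1.70 and 2.31, Mt2 between 1.34 and 2.27 and Mt3 between -0.91 and -0.70, while Mtf1 lies on both sides of 0.

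Levels of different genes were compared per length, as CPM divided by the annotated exon length in kilobases (RPKM). In null canals the order was Mt1 (135 ± 46.5), Mt2 (45.4 ± 17.7), Slc39a10 (15.5 ± 3.71), Mt3 (5.27 ± 0.836), Mtf1 (1.65 ± 0.151) and Slc30a1 (1.64 ± 0.652 RPKM; SD, n = 4). In wild-type canals it was Mt1 (36.2 ± 15.8), Mt2 (14.9 ± 9.89), Slc39a10 (12.95 ± 0.340), Mt3 (9.04 ± 0.521), Slc30a1 (2.03 ± 0.421) and Mtf1 (1.59 ± 0.235 RPKM; SD, n = 3). Mtf1 and Slc30a1 did not differ beyond their spread in either genotype, nor did Mt2 and Slc39a10 in wild type. In wild type, the ranges of Mt2 (8.71 to 26.3 RPKM) and Mt3 (8.53 to 9.57 RPKM) overlapped as well. The annotated exons of Mt1 and Mt3 include longer, less spliced forms. With the first-listed coding transcript as the length, Mt1 came to 305 RPKM in the null and 82.2 RPKM in wild type. Mt3 came to 10.5 and 18.0 RPKM in the same order, which put it just above Mt2 (17.2 RPKM) in wild type.

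By the distance between library profiles (root mean square difference of log2(CPM + 0.5), centred per gene over the 7 libraries), the gene closest to Mt1 among 8463 genes of at least 10 CPM was Mt2, and the reverse was also true, with a distance of 0.211. The next 4 were the same genes for both: A930001N09Rik (0.243 from Mt1 and 0.368 from Mt2), Bend5 (0.271 and 0.409), Anxa4 (0.301 and 0.406) and Dhrs3 (0.318 and 0.405). A930001N09Rik averaged 22.1 ± 9.83 CPM in null canals and 5.56 ± 1.68 CPM in wild-type canals. Anxa4, a calcium-dependent membrane-binding protein, averaged 27.3 ± 7.0 CPM in null canals and 7.61 ± 2.39 CPM in wild-type canals. Dhrs3, an enzyme that reduces retinal, averaged 54.7 ± 12.4 CPM in null canals and 17.3 ± 5.08 CPM in wild-type canals (SD, n = 4 and 3). All 4, like Mt1 and Mt2, were lowest in replicate 4 among null libraries and highest in replicate 4 among wild-type libraries. Since they were chosen by their profiles over these same libraries, this likeness follows largely from the choice.

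**Figure D3:**
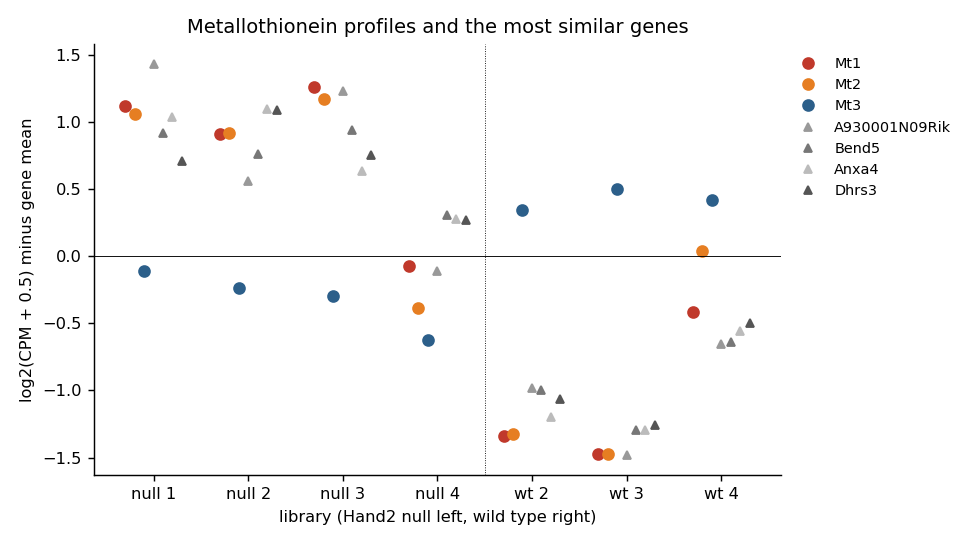
Log2(CPM + 0.5) minus the gene's mean over 7 libraries (y axis), by library (x axis, Hand2 null left of the dotted line, wild type right of it), for the 3 metallothioneins (circles) and the 4 genes closest to Mt1 and Mt2 (triangles). Mt1 and Mt2 nearly coincide except in null replicate 4 and wild-type replicate 4, and Mt3 is lower in every null library than in any wild-type library.

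The rest of the zinc transporter families was measured to set the members in context. Most SLC30 (ZnT) proteins move zinc out of the cytosol and most SLC39 (ZIP) proteins move it in. Of 22 genes of both families other than Slc30a1 and Slc39a10, 19 were tested, and edgeR's quasi-likelihood test called 0 higher and 0 lower. At an unadjusted p under 0.05, 1 was higher and 0 lower, and DESeq2 called the same number. Over all genes, DESeq2 called 1761 of 18869. The share of all genes under the unadjusted cut was not counted. Nothing is read from such counts here or for the lists below. The median log2 fold change was -0.02, against 0.02 over all genes tested. The 1 transporter gene higher in both counts was Slc30a10, named after its value was seen, a manganese and zinc exporter. It had 6.72, 10.6, 8.20 and 4.03 CPM in null replicates 1 to 4, against 2.25, 4.15 and 4.30 CPM in wild-type replicates 2 to 4. Again null replicate 4 was the lowest null library, and it lay below 2 of the wild-type libraries. The log2 fold change of Slc30a10 was 1.03 (SE 0.334, edgeR adjusted p = 0.0860), and without null replicate 4 it was called (1.23, adjusted p = 0.0253).

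None of the most abundant transporters was called. Slc39a1, a plasma membrane importer, averaged 245 ± 42.1 CPM in null canals and 253 ± 35.7 CPM in wild-type canals, and its log2 fold change was -0.07 (SE 0.156). Slc39a7, which releases zinc from the endoplasmic reticulum, had a log2 fold change of 0.10 (SE 0.129), and Slc39a8, an importer of zinc and manganese, had -0.36 (SE 0.173). In the SLC30 family, Slc30a9 had -0.03 (SE 0.224), Slc30a6 -0.02 (SE 0.167) and Slc30a5, which loads zinc into the secretory pathway, -0.38 (SE 0.211). The edgeR adjusted p-values of these 6 ran from 0.223 to 0.960.

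**Figure D4:**
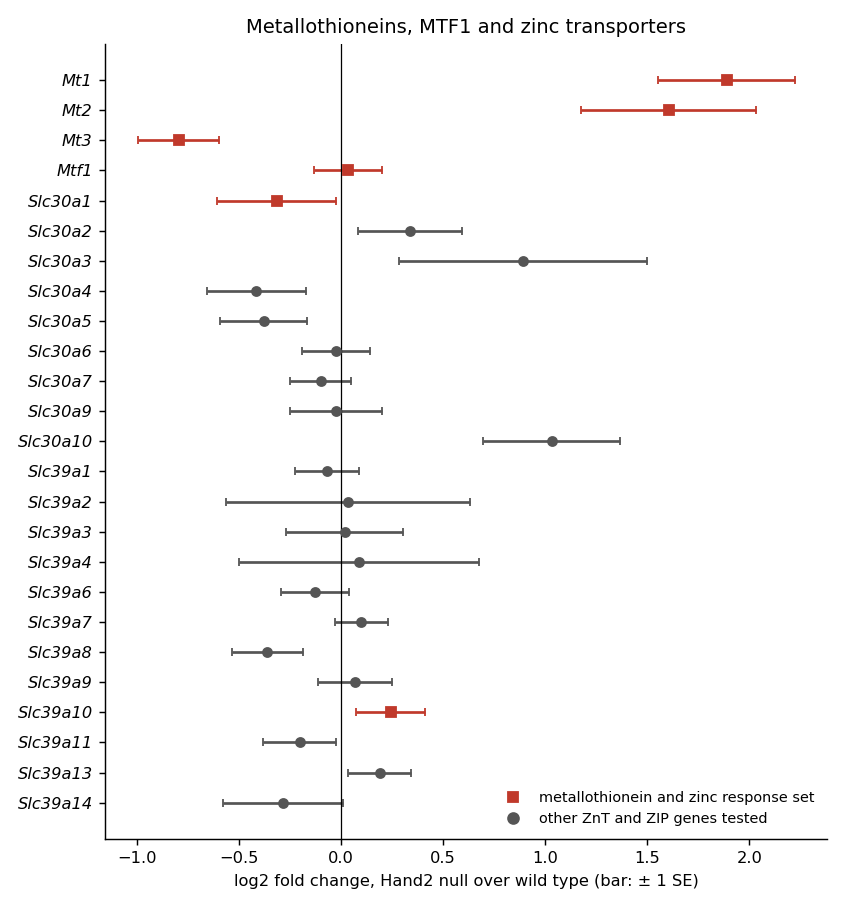
Log2 fold change (Hand2 null over wild type, bars ± 1 SE) of the metallothioneins, Mtf1 and all tested genes of the zinc transporter families Slc30a and Slc39a. Squares are the members and circles the other 19 genes, of which none was called, with Slc30a10 the farthest from 0 at 1.03.

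Other genes tied to MTF1 or to metals showed no common direction. Of 6 genes linked to MTF1 in mouse, edgeR called 1 higher and 0 lower. It was Ndrg1, a stress-induced cytoplasmic protein that is also a hypoxia gene, at 49.5 ± 16.3 CPM in null canals and 6.01 ± 2.03 CPM in wild-type canals (SD, n = 4 and 3; log2 fold change 3.04, SE 0.324, edgeR adjusted p = 0.000392). The list median was 0.05. At an unadjusted p under 0.05, 1 gene of this list was higher and 2 lower, and DESeq2 called the same numbers. Among copper genes, 2 of 10 tested rose and 1 fell, with a median of -0.00. The copper-exporting pumps Atp7b (1.07, SE 0.211, edgeR adjusted p = 0.0121) and Atp7a (0.63, SE 0.140, adjusted p = 0.0220) rose, and the chaperone Atox1, which hands copper to them, fell (-0.53, SE 0.133, adjusted p = 0.0391). Each of the 3 lost its call without wild-type replicate 2 (adjusted p = 0.0780, 0.114 and 0.185), and the same held with wild-type replicate 3 removed (0.0598, 0.131 and 0.174). Without null replicate 1, Atp7a (0.0589) and Atox1 (0.0894) also lost it, as they did without null replicate 2 (0.0571 and 0.0866). Atox1 lost it further without null replicate 4 (0.0633) or wild-type replicate 4 (0.0580).

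Of 12 iron genes tested, edgeR called 0 higher and 1 lower. The gene that fell was the mitochondrial iron importer Slc25a37 (-0.82, SE 0.195, edgeR adjusted p = 0.0289), which is rich in erythroid cells. Its call was lost without null replicate 1 (0.0713) or without wild-type replicate 2, 3 or 4 (0.0863, 0.0648 and 0.0776). The embryonic globins Hbb-y, Hbb-bh1 and Hba-x had log2 fold changes of -0.85, -0.81 and -0.67 without passing the test, and the part of blood content in the Slc25a37 value was not tested. At an unadjusted p under 0.05, 1 iron gene was higher and 2 lower, and DESeq2 called 0 higher and 2 lower.

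The antioxidant genes, many of them targets of NRF2, had 0 of 14 higher and 2 lower, with a median of -0.35. Gpx1, a glutathione peroxidase, averaged 366 ± 29.8 CPM in null canals and 584 ± 32.8 CPM in wild-type canals (SD, n = 4 and 3; log2 fold change -0.70, SE 0.121, edgeR adjusted p = 0.00604). Txnrd1, a thioredoxin reductase, had -0.58 (SE 0.141, adjusted p = 0.0317). Txnrd1 lost its call without null replicate 1 or 2 (0.0921 and 0.0780) or wild-type replicate 2 or 3 (0.131 and 0.174). At an unadjusted p under 0.05, 1 antioxidant gene was higher and 6 lower, and DESeq2 called the same numbers.

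Of 9 glucocorticoid-responsive genes, 2 rose and 0 fell, with a median of 0.48. They were the kinase gene Sgk1 (0.77, SE 0.147, edgeR adjusted p = 0.0107) and the phosphatase gene Dusp1 (0.81, SE 0.201, adjusted p = 0.0357). Both lost their calls without wild-type replicate 2 (0.0804 and 0.179), wild-type replicate 3 (0.0781 and 0.172) or null replicate 1 (0.0504 and 0.0932). Fkbp5 and Tsc22d3, commonly used markers of glucocorticoid receptor activity, were outside the naming rule and had -0.31 (SE 0.187) and -0.34 (SE 0.146). They were the only genes of the list below 0, and the other 7 were above it. Among those 7, also outside the rule, Klf9, Zbtb16, Errfi1, Per1 and Nr3c1 had 0.51, 0.61, 0.48, 0.28 and 0.01. At an unadjusted p under 0.05, 3 genes of this list were higher and 1 lower, and DESeq2 called 2 higher and 0 lower. Of 8 genes around STAT3, edgeR called 0 higher and 0 lower, with 1 higher at an unadjusted p under 0.05 and 1 called higher by DESeq2. Stat3 itself had 0.51 (SE 0.153, edgeR adjusted p = 0.0703) and the receptor subunit Il6st -0.24 (SE 0.130, adjusted p = 0.272).

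In a core list of hypoxia genes, 13 of 15 rose and 0 fell, with a median of 1.58, and all 15 were higher at an unadjusted p under 0.05. This list was known from earlier results to be higher, so it is not independent evidence of its direction. Bhlhe40, a transcriptional repressor, had 2.90 (SE 0.191), and the oxygen sensor Egln3 had 2.97 (SE 0.356). The summed level of the list was 16010, 14624, 13413 and 14086 CPM in null replicates 1 to 4, against 7976, 7577 and 8716 CPM in wild-type replicates 2 to 4. The glucose transporter Slc2a3 had 2.54 (SE 0.261), and the oxidase Ero1l and the collagen hydroxylase subunit P4ha1 had 1.58 (SE 0.171) and 1.28 (SE 0.166). Ldha, Pgk1, Bnip3 and Slc2a1 made up most of the sum, which was lowest in null replicate 3 among null libraries. Ndrg1, Egln3 and Vegfa were instead highest in null replicate 3 (61.1, 31.0 and 58.3 CPM) and lowest in null replicate 4 (25.5, 11.3 and 18.4 CPM), the libraries with the most and the least Mt1 in the null. Vegfa and this ordering were picked out after their values were seen. The other genes of the list were highest elsewhere, such as Bhlhe40 and Adm in null replicate 1, Slc2a3 in null replicate 2 and Slc2a1 in null replicate 4. Of them, Bhlhe40, Car9, Pdk1, Pgk1, Bnip3, Ankrd37 and Ero1l were also lowest in null replicate 4 among null libraries. Ldha, Slc2a1, Slc2a3, Adm and P4ha1 were not. A low value in null replicate 4 was thus not particular to Ndrg1, Egln3 and Vegfa.

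**Figure D5:**
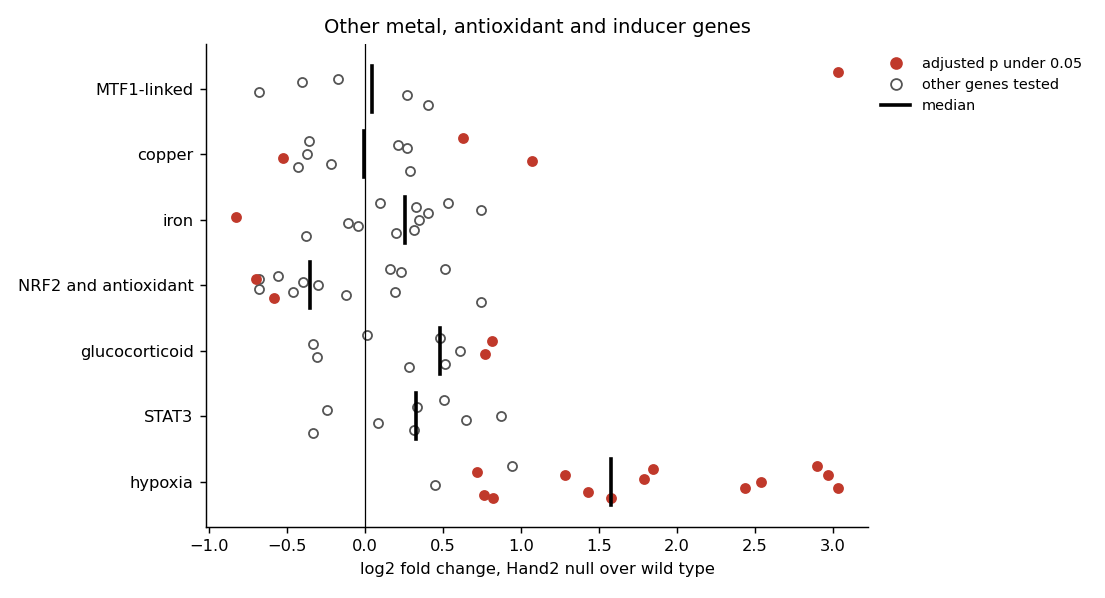
Log2 fold change (x axis, Hand2 null over wild type) of tested genes in 7 lists (rows). Filled points passed an edgeR adjusted p of 0.05 and bars are list medians, which run from -0.35 for antioxidant genes to 1.58 for hypoxia genes.

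Markers of tissues rich in metallothionein were measured beside the members. Of 7 yolk sac endoderm and liver genes, 5 were tested, and edgeR called 0, also 0 at an unadjusted p under 0.05 and 0 by DESeq2. Alb, which defines hepatocytes, had at most 1 read in any library. The list summed to 6.48, 15.2, 36.6 and 7.45 CPM in null replicates 1 to 4, against 5.73, 5.02 and 22.9 CPM in wild-type replicates 2 to 4. The median log2 fold change of the 5 tested was 0.74, with 4 of 5 above 0. The library with the largest sum in each genotype, null replicate 3 and wild-type replicate 4, was also the one with the most Mt1 and Mt2. The order did not hold below that, since null replicate 1, with 197 CPM of Mt1 and 31.9 CPM of Mt2, had the smallest sum among null libraries. Leaving out null replicate 3 gave the values of 1.72 and 1.44 above, and the part of this marker list in the Mt1 and Mt2 levels was not tested. Erythroid markers, of which 5 of 7 were tested and 0 called (2 lower at an unadjusted p under 0.05 and 1 by DESeq2), summed to 5602 to 14510 CPM in null canals and 9329 to 22038 CPM in wild-type canals. The remaining 2 genes, Hba-a1 and Hba-a2, are near-identical copies and had 0 reads in every library. Cushion mesenchyme markers summed to 70.5 to 93.9 CPM in null canals, against 116 to 262 CPM in wild-type canals, and 4 of 5 were called lower. Endocardial markers summed to 247 to 270 CPM in null canals, against 200 to 222 CPM in wild-type canals, with 1 of 5 called higher. Foregut endoderm markers summed to 5.62 to 13.5 CPM in null canals, against 4.05 to 4.81 CPM in wild-type canals, without overlap. Of 4 tested, 1 was called higher, the endoderm and endothelial factor gene Sox17 (2.09, SE 0.548, edgeR adjusted p = 0.0441). Sox17 was also the only gene of the list without overlap between genotypes. It held 10.4 of the 13.5 CPM in null replicate 3, so the largest foregut sum was mostly Sox17. Epcam and Cdh1 were instead highest in null replicate 4 (4.88 and 2.57 CPM). The part of these markers in the member levels was not tested.

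Mt4, Mt3, Mt2 and Mt1 lie next to each other in that order on chromosome 8, the chromosome that also carries Hand2. Some protein-coding genes near the cluster were examined, a choice made after the metallothionein values were known, and none of those named here passed the edgeR test. Bbs2, the nearest coding neighbour with a row on the Mt4 side, stood at 0.62 on the log2 scale (SE 0.281, adjusted p = 0.198 by edgeR). Nup93, the nearest beyond Mt1, had 0.14 (SE 0.249, adjusted p = 0.769), and Herpud1, a gene of the endoplasmic reticulum stress response on the same side, had 0.46 (SE 0.153, adjusted p = 0.0905).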

How the data were processed

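RNA of 7 canal pools was measured by ribosomal RNA-depleted sequencing (low-input cDNA kit, 8 PCR cycles, single reads of 50 nt without strand, RNA integrity of at least 8.5), per the labels' protocols. The labels name 4 pools per genotype, of which 1 wild-type pool of poorer RNA gave no library. The authors deposited raw read counts per gene symbol, made with TopHat2 2.0.13, HTSeq and SAMtools on mm9, per the submitters' processing notes. Neither the gene annotation nor the options of the counting step are given in the sources used here. The 5 summary rows per file were left out of all totals. Reads outside genes were 7.31% to 14.2%, in more than 1 gene 1.46% to 1.69%, and reads aligned to several places, which are not in the gene counts, 9.08% to 13.8%.

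Genotypes were compared with edgeR 4.0.16 (R 4.3.3, TMM, minimum count 10, quasi-likelihood F test, Benjamini-Hochberg over 14290 genes, called under 0.05), with genotype as the only term and 4 null against 3 wild-type libraries. SE was taken as |log2 fold change|/√F. p-values measure the spread between pools. CPM uses reads in genes, and 3 reads, the floor, came to 0.0669 to 0.108 CPM. RPKM uses GENCODE M21 exon lengths (GRCm38), because the lengths of the reference table planned for this are gene spans. Coordinates of GRCm38.p6 belong to the printed sequences and not to the counts. All 6 members matched a RefSeq promoter.

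The members and lists were chosen with earlier results of these data known. Named were the members, Hand2, up to 6 called genes per list by smallest p (or the 2 most abundant where none was called), the 3 most abundant genes of each transporter family, the 5 profiles nearest to Mt1 and Mt2, and marker genes. Alternatives were RLE and upper-quartile scaling, no or a stricter filter (1 CPM in 3 libraries), DESeq2 1.42.0, a replicate block, removal of haemoglobin genes, each library left out, and null replicate 2 with wild-type replicate 4 left out. The scripts were checked on simulated counts.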

Additional observations from a re-analysis of the deposited data

Results flagged for a closer look

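Among 51 sets of 4 null libraries (members, their ratios, named genes and list sums), 2 held a library far from the other 3, where chance gives about 1 in 20, and neither was a metallothionein or zinc gene. Both were null replicate 4, the null library lowest in Mt1, Mt2 and Mt3. Its endocardial markers summed to 270 CPM, the highest of the null libraries, and its epicardial markers to 57.1 CPM, the lowest. The part of either in the member levels was not tested.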

How the results depend on the processing

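Over 15 alternatives no member's log2 fold change moved by more than the spread between replicates, a loose limit when only 1 library is left out. In some alternatives Mt1, Mt2, Slc30a1 and Slc39a10 moved by more than their SE, while Mt3 and Mtf1 did not. The ranges were 1.70 to 2.31 for Mt1, 1.34 to 2.27 for Mt2, -0.91 to -0.70 for Mt3, -0.053 to 0.15 for Mtf1, -0.64 to -0.14 for Slc30a1 and 0.064 to 0.33 for Slc39a10. Counts moved more. Over all genes, 587 higher and 305 lower became 993 and 768 with DESeq2, 298 and 123 with both null replicate 2 and wild-type replicate 4 removed, and 210 to 946 higher and 46 to 652 lower with 1 library left out (fewest without wild-type replicate 2, most without null replicate 3). Removing wild-type replicate 3 gave 246 and 68, null replicate 1 gave 284 and 90, and null replicate 2 gave 389 and 150. Zinc transporters called higher, 0 before, were 1 with DESeq2 and 0 to 1 with 1 library left out (1 without null replicate 4). The metal and stress lists held 17 genes called higher, of which 13 belong to the hypoxia list, and 4 called lower. With 1 library left out these became 10 to 20 higher and 1 to 8 lower. The lower ones were 10 with DESeq2 and 1 without the 2 libraries together.

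The replicate block gave 565 lower genes, 7 lower genes over the metal and stress lists and an iron list median of 0.13. Same-numbered libraries had deviations correlated at -0.09, 0.36 and 0.23 for numbers 2 to 4. Wild-type replicates 3 and 4 correlated best with the null library of their own number, and wild-type replicate 2 did not. The labels name no batch, and whether same-numbered libraries share more than a number was not tested.

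With 1 library left out, list medians ran from -0.14 to 0.080 for importers, -0.10 to 0.16 for MTF1-linked genes, -0.060 to 0.046 for copper, 0.13 to 0.30 for iron, -0.46 to -0.22 for antioxidant, 0.31 to 0.56 for glucocorticoid and 0.087 to 0.54 for STAT3 genes. Without the 2 libraries together they were 0.30 for MTF1-linked, 0.056 for copper, -0.45 for antioxidant, 0.32 for glucocorticoid and 0.17 for STAT3 genes, and the stricter filter gave 0.51 for STAT3 genes. With the first-listed transcript as length, chosen after seeing the data, RPKM in null and wild type became 305 and 82.2 for Mt1, 10.5 and 18.0 for Mt3, 1.93 and 1.86 for Mtf1, and 14.4 in wild type for Slc39a10. That length is shorter for these genes, and the cause of the other moves was not tested. Of 15 called genes named by the rule for the lists, Hand2 included, 8 passed in each fit that left out 1 library. Depth limits Mt4, at or under the floor.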
